A study of Mus musculus with 2 samples.

Results

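The mitochondrial ribosomal protein genes of 661W cells were examined as 77 genes of the 13281 in the deposited expression table. A gene was taken as a member when its symbol was Mrpl or Mrps followed by a number, with or without a letter a, b or c. By symbol, 48 belong to the large subunit (Mrpl) and 29 to the small subunit (Mrps). GENCODE M21 holds 78 mouse symbols of this form, and Mrpl53 was not analysed here. The members lie on 17 chromosomes, and a mean of at least 1 CPM (read counts scaled to an effective library size) was met by all 77.

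661W cells are a mouse line labelled as photoreceptor. SV40 T antigen was expressed in the mouse whose eye tumor gave rise to them. Both groups were stable populations of this line under normal culture. One carried the empty vector and the other expressed 3xF-TRPM1, full-length human TRPM1, a cation channel, with an N-terminal 3xFLAG tag. The constructs were made in the retroviral vector pBABE-Puro, and the study's stable populations were kept under puromycin. Each group gave 1 mRNA library, so no SD, test or p-value is given, and a difference between the libraries cannot be told apart from a difference between 2 cultures.

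Reads over the listed genes summed to 16404444 with the empty vector and to 17869838 with 3xF-TRPM1. Of 18 cone markers, 3 were listed, with Gnat2, the cone transducin subunit, at 2.57 and 2.49 CPM (log2 fold change -0.04), Rom1 at 9.68 and 7.26 CPM (-0.39) and Otx2, a transcription factor, at 50.4 and 74.0 CPM (0.55) with the empty vector and 3xF-TRPM1. The difference exceeded counting error for Rom1 and Otx2, in opposite directions. The cone opsins Opn1sw and Opn1mw were not among those listed. Of 10 fibroblast and matrix markers 8 were listed, and they summed to 13471 CPM with the empty vector and to 21724 CPM with 3xF-TRPM1. Of 10 Müller glia and astrocyte markers 7 were listed, with sums of 1376 and 1813 CPM, and of 8 macrophage markers only Cd68 was listed, at 4.84 and 2.95 CPM. The part of these markers in the results was not tested. The table holds 0 rows for mouse Trpm1, so the expression values do not check the labels.

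The mitochondrial ribosome translates the few proteins that mitochondrial DNA encodes, all of them subunits of the oxidative phosphorylation complexes. Its rRNAs come from mitochondrial DNA, while its proteins are encoded in the nucleus, made in the cytosol and imported. Some descend from bacterial ribosomal proteins and keep the bacterial number, and others were gained in mitochondria. In photoreceptors, mitochondria crowd the inner segment and supply ATP for ion pumping.

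NRF1, GABP (an ETS factor) and YY1 are known as regulators of nuclear genes for mitochondrial proteins. The promoters of RefSeq (GRCm38.p6, from 250 bases before to 50 after the start site) matched 68 of the 77 members and were searched on both strands for their motifs. The palindromic NRF1 motif, printed in capitals for Mrpl39, was in 3 of 68 members (4.41%). It was in 233 of 9783 table genes with a promoter (2.38%) and 290 of all 27025 genes with a promoter (1.07%). The ETS motif ACTTCCGG was in 12 members (17.65%), against 9.44% of the table genes and 4.31% of all genes with a promoter. The YY1 motif AAGATGGCG was in 8 members (11.8%), against 3.66% and 1.64%. In all, 22 members held at least 1 motif and Mrps27 held 2.

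The 4 promoters that follow show each motif. Capitals mark the motif or its reverse complement, and positions count from the start site. Mrpl36 is the member with the lowest log2 fold change, and its window (chr13:73330759-73331058, plus strand) has the YY1 motif beginning at -31. Mrps27 (chr13:99344536-99344835, plus strand) has an ETS motif at -49 and a YY1 motif at 15. Mrpl39 (chr16:84735195-84735494, minus strand) has the NRF1 motif at -125, and its levels were 56.4 CPM with the empty vector and 52.7 CPM with 3xF-TRPM1 (log2 fold change -0.10, from -0.23 to 0.03). Mrpl43 (chr19:45006393-45006692, minus strand), the member with the highest log2 fold change, has an ETS motif at -12. The windows of Mrpl36 and Mrpl39 lie inside the genes as placed by GENCODE M21, downstream of their annotated starts.
Mrpl36: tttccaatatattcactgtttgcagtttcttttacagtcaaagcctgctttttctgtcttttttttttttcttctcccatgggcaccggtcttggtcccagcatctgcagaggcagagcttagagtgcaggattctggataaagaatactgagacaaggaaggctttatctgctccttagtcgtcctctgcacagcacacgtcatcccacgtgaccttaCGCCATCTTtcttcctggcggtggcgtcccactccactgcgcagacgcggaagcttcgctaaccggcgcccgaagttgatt
Mrps27: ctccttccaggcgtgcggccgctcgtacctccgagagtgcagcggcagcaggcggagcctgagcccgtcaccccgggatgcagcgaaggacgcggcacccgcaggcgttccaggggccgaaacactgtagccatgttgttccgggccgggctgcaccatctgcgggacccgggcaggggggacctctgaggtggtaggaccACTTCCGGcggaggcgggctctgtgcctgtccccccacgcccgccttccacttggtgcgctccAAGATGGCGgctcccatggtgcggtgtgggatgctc
Mrpl39: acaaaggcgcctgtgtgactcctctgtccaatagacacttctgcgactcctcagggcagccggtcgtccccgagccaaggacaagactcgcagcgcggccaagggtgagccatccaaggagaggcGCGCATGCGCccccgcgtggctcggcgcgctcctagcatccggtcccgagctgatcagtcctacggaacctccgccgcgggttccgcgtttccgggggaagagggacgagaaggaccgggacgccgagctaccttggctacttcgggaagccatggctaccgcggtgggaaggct
Mrpl43: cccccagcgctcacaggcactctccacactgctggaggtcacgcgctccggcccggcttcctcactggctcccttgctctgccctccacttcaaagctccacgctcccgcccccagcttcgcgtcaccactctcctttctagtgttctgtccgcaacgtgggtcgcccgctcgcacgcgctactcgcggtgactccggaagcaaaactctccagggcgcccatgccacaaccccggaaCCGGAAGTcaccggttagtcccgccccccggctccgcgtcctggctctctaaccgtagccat

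Both Mrpl36 and Mrpl43, at opposite ends of the fold changes, had a motif. The median log2 fold change was -0.08 for the 3 members with an NRF1 motif, -0.04 for the 12 with an ETS motif and -0.07 for the 8 with a YY1 motif. A match of letters is not evidence that a factor binds there.

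The first question was whether the members differed between the libraries, as a whole and by subunit. They differed little, with more members lower than higher in the 3xF-TRPM1 library. Fold changes are 3xF-TRPM1 over empty vector, computed as log2 of CPM plus 0.5. Reads were worked back from the CPM steps, and each ratio was given a 95% exact (Clopper-Pearson) interval that covers counting error only. A gene is called lower or higher below when that interval excluded 1-fold. At 1.5-fold or more with such an interval, 1 of 77 members was lower (1.30%), against 3.07% of all genes, and 0 were higher, against 3.91%. This member was Mrpl36, and the count was 0 with a pseudocount of 1, with a correction for gene length and without the members that share exon bases with another gene. Without a fold threshold, 23 members were lower (29.9%), against 19.7% of all genes, and 1 was higher (1.30%), against 23.1%. The intervals of the other 53 members included 1-fold. At 1.2-fold or more, 15 members were lower (19.5%), against 9.61% of all genes, and 0 were higher, against 12.6%.

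The log2 fold change was below 0 in 52 of 77 members (67.5%), against 48.2% of all genes. The median was -0.11, against 0.01 for all genes, and members ran from -0.61 to 0.17. The middle of the distribution lay between -0.22 and 0.03 (quartiles). The members summed to 2165 CPM with the empty vector and to 2023 CPM with 3xF-TRPM1, a log2 ratio of -0.10 (-0.12 to -0.08). They held 36220 reads (0.221% of the listed reads) and 35679 reads (0.200%). These shares are of read totals, a different scaling from that of the CPM. Scaled to those totals, the member median was -0.15, against -0.04 for all genes. A single member had between 82 and 1873 reads in a library, and the median interval reached 0.20 to either side on the log2 scale. Differences of the size of the median therefore lay within counting error for most single members.

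**Figure D1:**
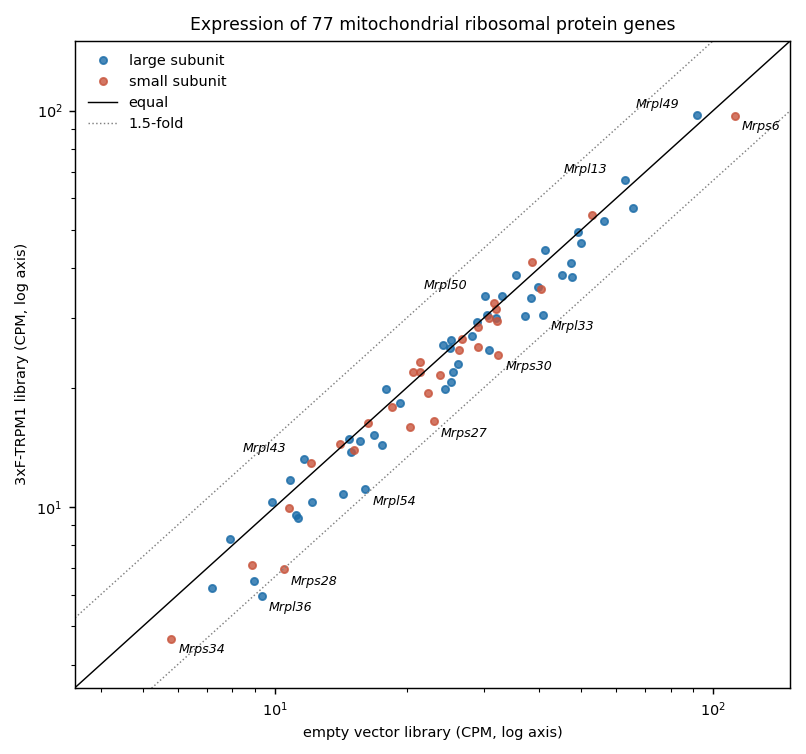
Each point is 1 of the 77 members, placed by its CPM in the empty vector library (x axis, log) and the 3xF-TRPM1 library (y axis, log), with lines for equal levels and 1.5-fold. Members lie close to the line of equal levels, more of them below it (52) than above. Mrpl36 lies beyond 1.5-fold and Mrps28 on that line, as no pseudocount is added to the plotted values.

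The subunits were close to each other in their summed levels. Large subunit genes summed to 1387 CPM with the empty vector and to 1297 CPM with 3xF-TRPM1, a log2 ratio of -0.10 (-0.12 to -0.07). For the small subunit the sums were 779 and 726 CPM, a log2 ratio of -0.10 (-0.14 to -0.07). The ratio of large to small subunit reads was 1.78 (1.74 to 1.82) with the empty vector and 1.79 (1.75 to 1.83) with 3xF-TRPM1, so the intervals overlapped.

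Of the 48 large subunit genes, 31 were below 0 on the log2 scale, 16 were called lower (33.3%) and 1 higher (2.08%), with a median of -0.11. Of the 29 small subunit genes, 21 were below 0, 7 were called lower (24.1%) and 0 higher, with a median of -0.08. Over all genes, 48.2% were below 0, 19.7% were called lower and 23.1% higher. The medians differed by -0.03, large less small, and this difference depended on which genes were assigned to each side. Structures of the mammalian ribosome place Mrps18a and Mrps30 in the large subunit, and Mrps36 belongs to the 2-oxoglutarate dehydrogenase complex. With those placements, and with mitoribosomal proteins of other symbols added, the medians were -0.11 and -0.12 and the difference was 0.0015. Without the 32 members that share exon bases with another gene, it was -0.12.

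**Figure D2:**
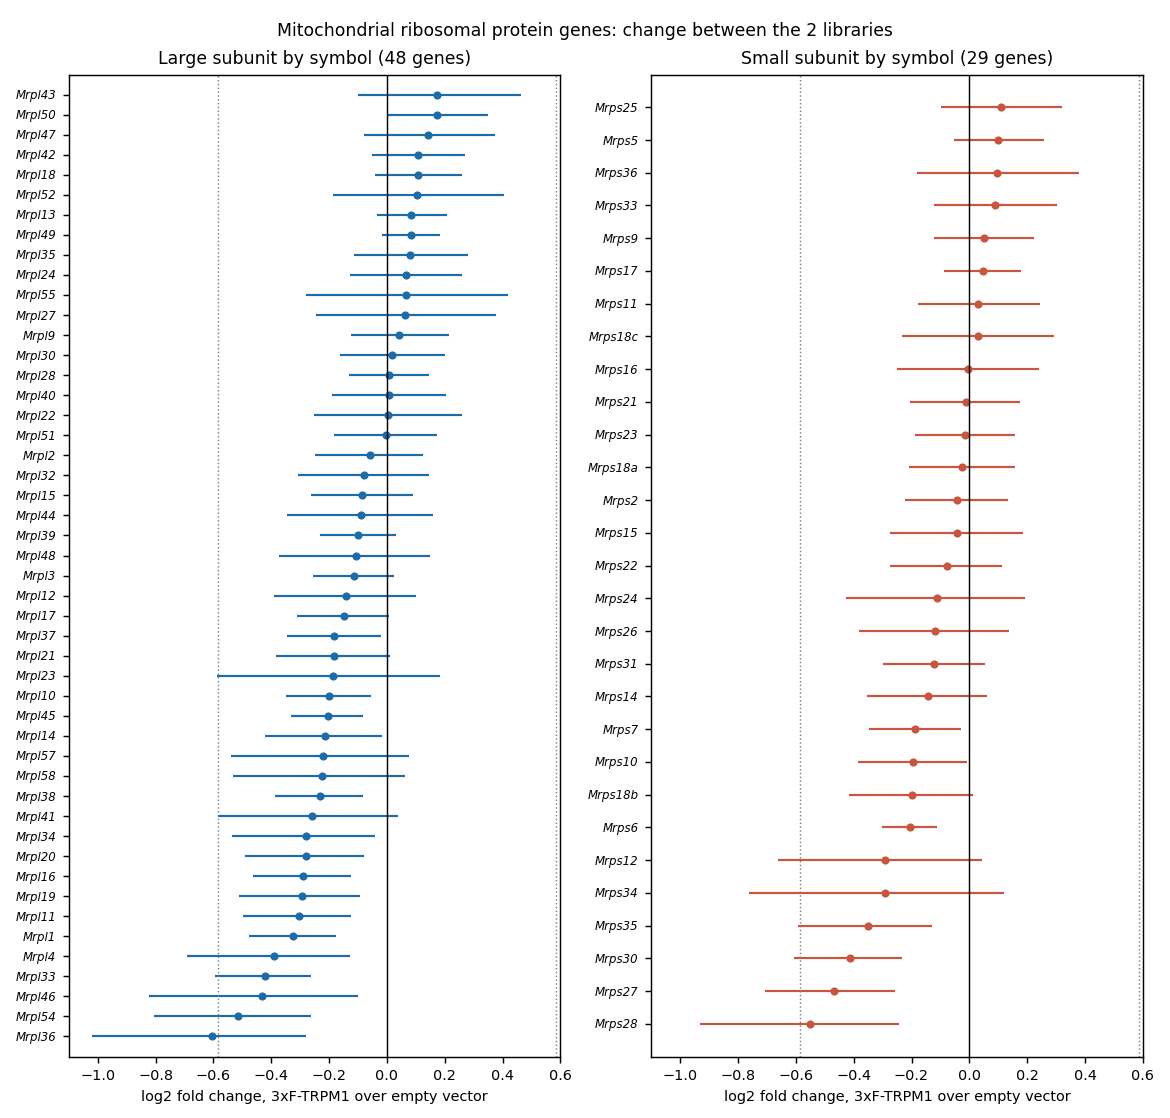
Points give the log2 fold change of each member and bars its 95% counting interval, with the large subunit on the left (48 genes) and the small subunit on the right (29 genes). Dotted lines mark 1.5-fold. Most bars cross 0, and the bars that do not lie below it except that of Mrpl50.

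The members with the lowest log2 fold changes came from both subunits. Mrpl36, the counterpart of the small zinc-binding bacterial protein L36, had 9.33 CPM with the empty vector and 5.95 CPM with 3xF-TRPM1, from 156 and 105 reads. Its log2 fold change was -0.61 (-1.02 to -0.28). It lies on the plus strand at chr13:73328513-73332178. Mrps28, a small subunit protein, had 10.5 and 6.97 CPM, a log2 fold change of -0.55 (-0.93 to -0.24). Mrpl54, found in mitochondria but not in bacteria, had 16.1 and 11.1 CPM (-0.51, from -0.81 to -0.26). In each of these, the empty vector library was the higher one.

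Mrps27, a pentatricopeptide repeat protein of the small subunit, had 23.0 CPM with the empty vector and 16.5 CPM with 3xF-TRPM1 (log2 fold change -0.47, from -0.71 to -0.26). Mrpl33, the counterpart of bacterial L33, had 40.9 and 30.4 CPM (-0.42, from -0.59 to -0.26). Mrps30 had 32.3 and 24.2 CPM (-0.41, from -0.61 to -0.23). Mrpl4, whose bacterial counterpart reaches into the exit tunnel, had 14.3 and 10.8 CPM (-0.39, from -0.69 to -0.13). Together with Mrpl46, described with its group, these are the 8 lowest members. Besides these and members of the groups described next, 10 were called lower, namely Mrps35, Mrpl1, Mrpl19, Mrpl16, Mrpl20, Mrpl34, Mrpl14, Mrps6, Mrps10 and Mrpl37, with log2 fold changes from -0.35 (Mrps35, with 20.4 and 15.9 CPM) to -0.18 (Mrpl37, with 38.3 and 33.7 CPM). Mrps6, the member with the most reads in the empty vector library, had 112 and 96.9 CPM (-0.21, from -0.30 to -0.11).

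At the other end, Mrpl50 had 30.2 CPM with the empty vector and 34.1 CPM with 3xF-TRPM1, from 505 and 601 reads (0.17, from 0.001 to 0.35). It was the only member called higher, and its interval reached almost to 0. Mrpl43 had 11.7 and 13.2 CPM (0.17, from -0.10 to 0.46), and Mrpl47 had 17.9 and 19.8 CPM (0.14, from -0.08 to 0.37). The other 5 of the 8 highest were Mrps25, Mrpl42, Mrpl18, Mrpl52 and Mrps5, with log2 fold changes from 0.10 to 0.11 and intervals that included 0.

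Members were then taken by their place in the ribosome. The L7/L12 stalk recruits translation factors. Mrpl10, its base, had 47.5 CPM with the empty vector and 41.3 CPM with 3xF-TRPM1 (log2 fold change -0.20, from -0.35 to -0.05). Mrpl11, which binds rRNA at the stalk base, had 30.8 and 24.9 CPM (-0.30, from -0.50 to -0.12). Mrpl12, the stalk protein that also binds mitochondrial RNA polymerase, had 16.8 and 15.2 CPM (-0.14, from -0.39 to 0.10). Mrpl10 and Mrpl11 were called lower (66.7% of 3 genes, against 19.7% of all genes), and the interval of Mrpl12 included 0.

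The central protuberance is the crown of the large subunit that faces tRNAs. Of 6 genes in this group, 5 were below 0 (83.3%, against 48.2% of all genes), with a median of -0.23. Mrpl46 had 8.97 and 6.52 CPM, from 150 and 115 reads (-0.43, from -0.82 to -0.10). Mrpl38 had 45.2 and 38.4 CPM (-0.23, from -0.39 to -0.08). These were the 2 called lower in the group (33.3%, against 19.7% of all genes). The values of Gadd45gip1 (-0.28), Mrpl58 (-0.22), a peptidyl-tRNA hydrolase that frees stalled ribosomes, Mrpl48 (-0.11) and Mrpl40 (0.01) had intervals that included 0.

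Proteins around the exit tunnel meet the nascent chain. In this group of 6, 3 were below 0 (50%, against 48.2% of all genes) and the median was -0.07. Mrpl45, which anchors the ribosome to the inner membrane, had 65.7 and 56.9 CPM (-0.21, from -0.33 to -0.08). It was the only gene of the group called lower (16.7%, against 19.7% of all genes). The others, Mrpl23 (-0.19), Mrpl17 (-0.15), Mrpl22 (0.00), Mrpl24 (0.07) and Mrpl47 (0.14), had intervals that included 0.

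Mammals have 3 paralogs of bacterial S18. Mrps18a had 29.0 and 28.5 CPM (-0.03), Mrps18b had 22.3 and 19.4 CPM (-0.20) and Mrps18c had 14.1 and 14.4 CPM (0.03). All 3 intervals included 0, so no difference was detectable at this depth.

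A further group holds 13 members in which human variants cause mitochondrial disease. Of these, 11 were below 0 (84.6%, against 48.2% of all genes), with a median of -0.09. Mrps28, given above, and Mrps7, with 40.5 and 35.5 CPM (-0.19, from -0.35 to -0.03), were called lower. The share called lower was 15.4%, against 19.7% of all genes. The other 11, namely Mrps34 (-0.29), Mrps14 (-0.14), Mrpl12 (-0.14), Mrpl3 (-0.11), Mrpl44 (-0.09), Mrps22 (-0.08), Mrps2 (-0.04), Mrps23 (-0.02), Mrps16 (-0.004), Mrpl24 (0.07) and Mrps25 (0.11), had intervals that included 0. The 44 members with a bacterial number (up to L36 or S21) had a median of -0.10, with 30 below 0 (68.2%). The 33 with a higher number, not used in bacteria, had a median of -0.11, with 22 below 0 (66.7%). Over all genes, 48.2% were below 0.

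The members were also divided by abundance. Of 30 members with a mean of 5 to 20 CPM, 22 were below 0 (73.3%, against 48.2% of all genes in that range). From 20 to 50 CPM it was 27 of 41 (65.9%, against 47.3%), and from 50 to 200 CPM 3 of 6 (50%, against 47.1%). The last range holds few members.

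Levels were compared between members per kilobase of the deposited gene length, which counts the exon bases of all transcripts. The highest levels in the empty vector and 3xF-TRPM1 libraries were 73.0 and 63.2 CPM per kilobase for Mrps6, the counterpart of bacterial S6, and 49.1 and 52.0 for Mrpl49. Mrps21 had 36.2 and 35.9, Mrpl28 had 35.6 and 35.7, and Mrpl18 had 29.5 and 31.9 CPM per kilobase. Mrpl49, Mrps21, Mrpl28 and Mrpl18 differed between the libraries by less than their counting error.

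The lowest levels were 1.47 and 1.28 CPM per kilobase for Mrpl23, followed by Mrpl48 with 1.83 and 1.69 and Mrps35 with 2.36 and 1.84. Mrps34 had 2.81 and 2.25, and Mrps25 had 3.26 and 3.53. Both Mrps34 and Mrps25 share most of their exon bases with other genes, as given below. The highest level was 49.7 times the lowest with the empty vector and 49.5 times with 3xF-TRPM1. The median was 9.55 CPM per kilobase with the empty vector and 8.90 with 3xF-TRPM1, and 50 members lay within 2-fold of the median with the empty vector. Large subunit genes had medians of 9.71 and 9.33, and small subunit genes 8.51 and 7.88 CPM per kilobase.

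The order of levels was alike in the libraries, with a Pearson r of 0.985 on the log2 scale and a Spearman rho of 0.975 across the 77 genes, which are not independent replicates. It depended on the length used. Mrpl33 has a deposited length of 7326 bases and a principal transcript of 478 bases, and per kilobase of that transcript it was second highest, at 85.7 and 63.7 CPM per kilobase. On that scale the highest level was 38.1 times the lowest with the empty vector.

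**Figure D3:**
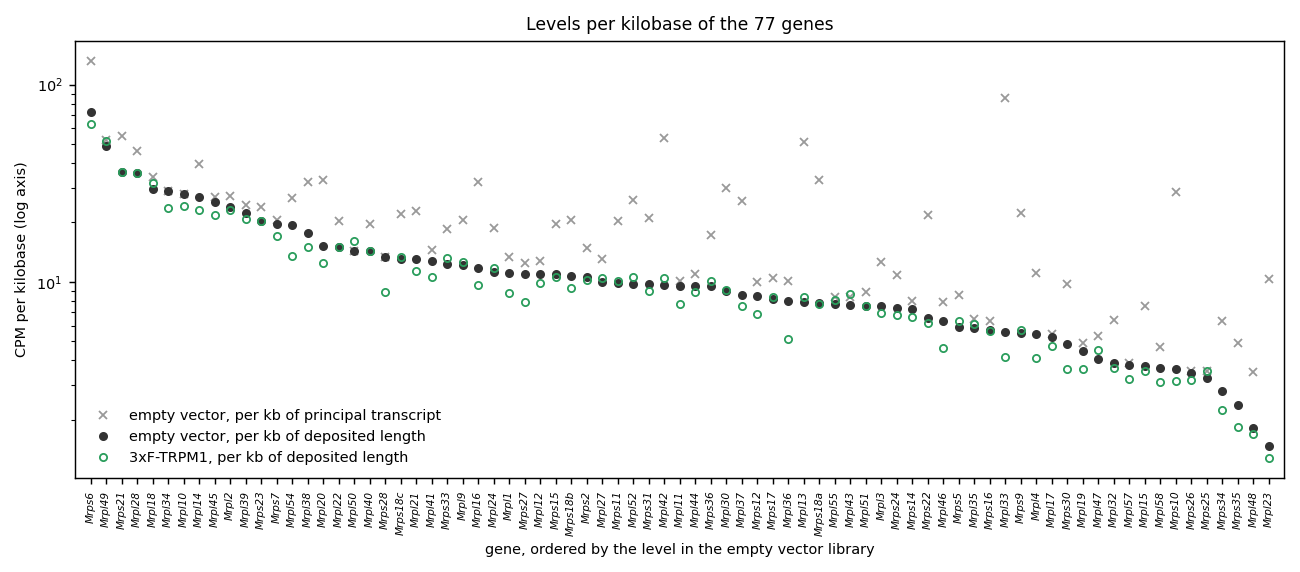
Members are ordered along the x axis by their level in the empty vector library, and the y axis gives CPM per kilobase on a log scale, for both libraries per kilobase of deposited length and for the empty vector library also per kilobase of the principal transcript. Filled and open circles stay close over a range of 49.7 times, and crosses depart from them most where the deposited length is far above that of the transcript.

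Many members lie beside or across other genes. Another protein-coding gene on the opposite strand started within 1000 bases upstream, pointing away, for 22 of 77 members (28.6%). This held for 1358 of 11966 listed protein-coding genes (11.3%). Of 21 such neighbors with values, 13 were below 0, 6 were called lower and 1 higher, with a median of -0.07. The 21 include the members Mrpl46 and Mrps11, which are neighbors of each other, and Mrpl46 is among the 6. Over all genes, 48.2% were below 0, 19.7% were called lower and 23.1% higher. Mrpl46 and Mrps11, a member of each subunit, start 30 bases apart. Mrpl46 was called lower, whereas Mrps11 had 21.4 and 21.9 CPM (0.03, from -0.18 to 0.24). Mrps27 starts 81 bases from Ptcd2, which had 17.8 and 15.6 CPM (-0.19, from -0.43 to 0.05).

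Exon bases were shared with another annotated gene by 32 members, 20 of them with a protein-coding gene on the opposite strand. The strand setting of the read counting was not stated, so whether reads in bases shared across strands were told apart is unknown. For 7 members a gene on the same strand shares bases, and there no strand setting separates the reads. The shared bases are 30 of 1161 exon bases (2.58%) in Mrpl36 and 4590 of 6576 (69.8%) in Mrps25. The partner of Mrpl36 is Ndufs6, a complex I subunit gene on the opposite strand. Ndufs6 had 13.3 CPM with the empty vector and 6.97 CPM with 3xF-TRPM1, a log2 fold change of -0.88 (-1.26 to -0.60). Mrpl43 shares 507 bases with Twnk, the mitochondrial DNA helicase gene, and the partner of Mrps25 is Nr2c2. Mrps6 overlaps Slc5a3, a transporter gene, on the same strand. Mrps34 shares 1309 of its 2064 exon bases (63.4%) with a protein-coding gene on the opposite strand. It shares 763 (37.0%) with a protein-coding gene on the same strand. Among the 45 members without any overlap, 13 were called lower (28.9%, against 19.7% of all genes), 1 was called higher (2.22%, against 23.1%), 0 passed 1.5-fold and the median was -0.08.

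The remaining parts of mitochondrial translation were taken from lists of genes by function, whose counts stand against 19.7% of all genes called lower and 23.1% called higher. Mitoribosomal proteins with other symbols numbered 5, with a median of -0.14, 2 called lower (40%) and 0 higher. Ptcd3, a small subunit protein, had 83.8 and 74.8 CPM (-0.16, from -0.27 to -0.05), and Dap3, a GTP-binding small subunit protein, had 75.4 and 69.0 CPM (-0.13, from -0.24 to -0.01). Gadd45gip1 is given above, Aurkaip1 was at -0.14 and Chchd1 at 0.03.

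Of 25 measured genes of mitoribosome assembly and rRNA modification, 7 were called lower (28%) and 1 higher (4%), with a median of -0.05. Ddx28, an RNA helicase of large subunit assembly, had 7.23 and 4.42 CPM (-0.65, from -1.14 to -0.29) and passed 1.5-fold. Noa1, a GTPase of small subunit assembly, had 37.9 and 25.9 CPM (-0.54, from -0.73 to -0.38). Ybey, an endoribonuclease, was at -0.32, and Mpv17l2 at 0.34 was the gene called higher.

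Of 16 measured genes on the list of translation factors, 5 were called lower (31.2%) and 0 higher, with a median of -0.11. This list also holds genes of RNA handling and membrane insertion, to which Lrpprc, Ptcd1 and Oxa1l of the 5 belong. The share called lower is therefore not that of translation factors alone. Lrpprc, which stabilizes mitochondrial mRNAs, had 144 and 128 CPM (-0.17, from -0.26 to -0.09). Guf1 (-0.25), Ptcd1 (-0.25), Oxa1l (-0.23), the insertase of the inner membrane, and the elongation factor Gfm1 (-0.15) were the other 4 called lower. The 20 aminoacyl-tRNA synthetases and amidotransferase subunits had a median of 0.03, with 4 called lower (20%) and 2 higher (10%), so the share called lower was close to that of all genes. The lowest of the 4 was Lars2, the leucyl-tRNA synthetase, with 502 and 380 CPM (-0.40, from -0.45 to -0.36). The 2 called higher were Qrsl1, with 15.6 and 20.2 CPM (0.36, from 0.14 to 0.61), and Pars2. Pars2 had 6.99 and 8.96 CPM (0.34, from 0.003 to 0.71).

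The 21 genes of mitochondrial DNA transcription and RNA processing had a median of -0.04, with 4 called lower (19.0%) and 3 higher (14.3%). Tefm, the elongation factor of mitochondrial RNA polymerase, had 8.31 and 6.18 CPM (-0.40), Top1mt 14.8 and 19.3 CPM (0.37) and Fastkd1 12.5 and 16.2 CPM (0.36), and Tfb2m was at -0.29. The regulators of mitochondrial biogenesis had a median above 0, unlike the members, with 5 of 10 called higher (50%, against 23.1% of all genes), 2 called lower (20%, against 19.7%) and the median at 0.17. Ppargc1a, a coactivator of mitochondrial biogenesis, had 17.7 CPM with the empty vector and 37.9 CPM with 3xF-TRPM1 (1.08, from 0.90 to 1.30). Its relative Ppargc1b had 1.32 and 3.91 CPM (1.28, from 0.86 to 2.34). Gabpb1, a subunit of GABP, was at 0.35 and Yy1 at 0.21, both called higher, whereas Gabpa, its partner subunit, was at -0.15 and Myc at -0.22, both called lower. Nrf1 was at -0.09 with an interval that included 0.

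The RNA of the ribosome itself is encoded in mitochondria. The small subunit rRNA mt-Rnr1 had 1173 CPM with the empty vector and 1685 CPM with 3xF-TRPM1, a log2 fold change of 0.52 (0.50 to 0.55). The large subunit rRNA mt-Rnr2 had 2088 and 2720 CPM (0.38, from 0.36 to 0.40). Both rRNAs were thus higher in the library in which the summed protein genes were lower, in libraries made by mRNA capture. Of the 13 measured mitochondrially encoded genes, 7 were called higher (53.8%) and 2 lower (15.4%), with a median of 0.15. The latter were mt-Nd1, with 4793 and 4247 CPM (-0.17), and mt-Nd2 (-0.09). The value of mt-Atp6, 9.56 and 16.3 CPM (0.74), passed 1.5-fold, but its level was far below that of mt-Co1 (7412 and 8333 CPM). Levels of mt-Co2 (29.3 and 30.8 CPM), mt-Co3 (8.61 and 8.73 CPM) and mt-Atp8 (1.02 and 1.25 CPM) were also far below mt-Co1. All of these enter the counts and the median above, and how reads shared with nuclear copies were counted is not given.

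The most similar groups outside this pathway were the nuclear subunits of oxidative phosphorylation and the cytosolic ribosomal proteins. The 77 nuclear subunits had a median of -0.05, with 47 below 0 (61.0%), 19 called lower (24.7%) and 6 higher (7.79%). The 1 gene of them past 1.5-fold was Ndufs6, and Cox5b had 40.2 and 28.8 CPM (-0.47). The 80 cytosolic ribosomal protein genes had a median of -0.09, with 70 below 0 (87.5%), 47 called lower (58.8%) and 4 higher (5%), and 0 passed 1.5-fold. Their reads are many more, with a median level of 170 CPM in the empty vector library, so smaller differences exceed counting error. Whether the members differ from these groups was not tested.

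**Figure D4:**
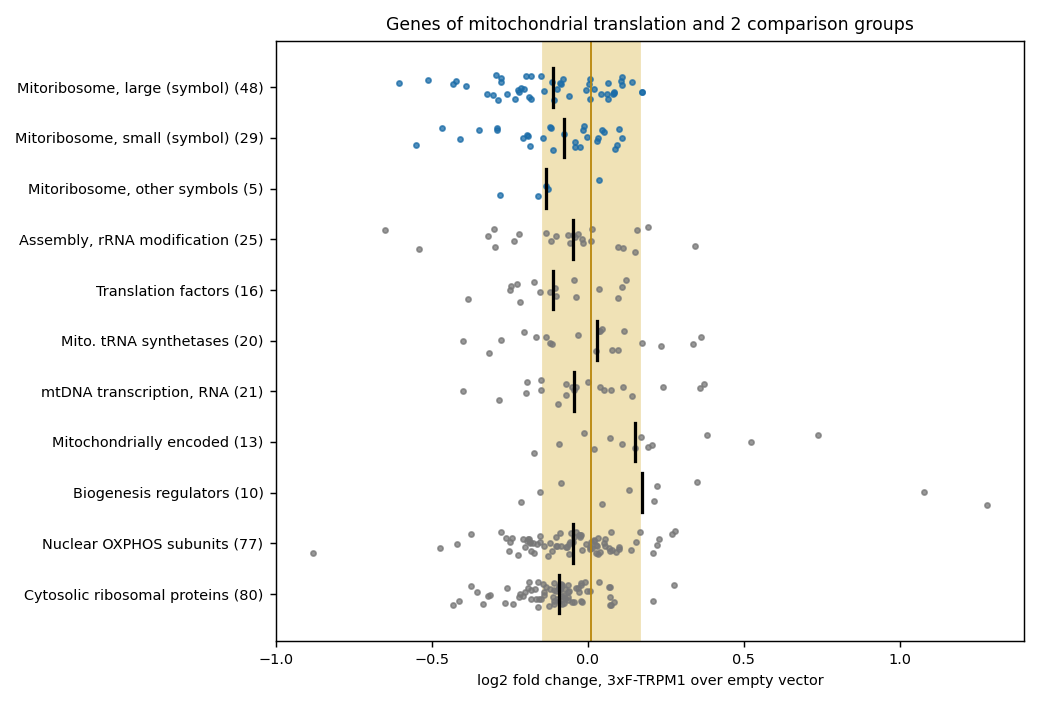
Each point is 1 gene, each row 1 list of genes and the x axis the log2 fold change of 3xF-TRPM1 over empty vector, with black bars for list medians and, over all genes, a line for the median and a band for the quartiles. The members and the cytosolic ribosomal protein genes center just below 0 (medians -0.11 and -0.09), and the mitochondrially encoded genes and the regulators of biogenesis center above 0 (0.15 and 0.17).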

How the data were processed

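RNA sequencing of 661W cells gave 1 library with the empty vector and 1 with 3xF-TRPM1. Libraries were prepared with the KAPA mRNA HyperPrep kit. Per the labels, the processing notes name GRCm38, HISAT2 2.1.0, featureCounts 2.0.0, edgeR 3.28.1 and DESeq 1.40.0. The annotation release and the strand setting used in counting were not given in the sources used here. The authors deposited CPM values for 13281 genes, all above 1 CPM in both libraries, so genes near 0 in either library are missing from the table. The deposited gene length equals the union of exons of GENCODE M21 in 100% of genes. The other 2 columns of values per library, the authors' fold changes and p-values and their table of gene set enrichment scores were not used.

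All CPM values were whole multiples of 0.0598 (empty vector) and 0.0567 (3xF-TRPM1) within 0.01 of a step, which gave the reads. A pseudocount of 0.5 CPM was added before fold changes were taken, and genes were to have 1 CPM or more on average, a filter that removed 0 members. The effective library sizes were 16728172 and 17639743 reads. With 3xF-TRPM1 this is less than the listed reads (17869838), so the deposited CPM were not scaled to plain read totals. Intervals are 95% Clopper-Pearson intervals of the read ratio, without pseudocount, and compare the libraries, not the conditions. No count model was fitted, since 1 library per group leaves no residual degrees of freedom. The planned protein identity of the S18 paralogs was not computed.

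The members, lists and motifs were chosen with earlier results of these data known. Named with values were members past 1.5-fold, the 8 highest and 8 lowest members by log2 fold change (averaging 5 CPM or more), the 5 highest and 5 lowest levels per kilobase, members of the role groups, and up to 4 genes per related list plus those past 1.5-fold. Genes outside this rule, chosen after their values were seen, were Mrps11, Mrpl39, the further members called lower, Ptcd2, Nr2c2, Slc5a3, Twnk, Chchd1, Lrpprc, Gfm1, Gabpa, Yy1, Nrf1, mt-Nd1, mt-Nd2, mt-Co1, mt-Co2, mt-Co3, mt-Atp8, Gnat2, Rom1, Otx2 and Cd68. Coordinates and overlaps are from GENCODE M21 and promoters from RefSeq (GRCm38.p6), whose start sites can differ. The alternatives were other scalings, pseudocounts of 0.1 and 1, filters, thresholds of 1.2-fold and 2-fold, a 99% interval, corrections for length, expression and GC content, other lengths and other subunit assignments. The procedure was tested on reads simulated with counting error only, so that test does not bear on differences between cultures. Computation was in Python 3.11.15 with pandas 2.3.3, scipy 1.17.1 and numpy 2.4.6, and plots were drawn in matplotlib 3.10.9.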

Additional observations from a re-analysis of the deposited data

How the results depend on the processing

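Of 104 recomputed values for the member counts, medians and levels, 80 stayed close to those reported, 23 moved and 1 reversed. Scaling to the total of listed reads gave member, large and small subunit medians of -0.1533, -0.1567 and -0.1243 (all genes -0.04), 2 members lower at 1.5-fold and 0 called higher. Over all genes it gave 442 higher and 480 lower at 1.5-fold, against 519 and 408, and a filter at 5 CPM left 351 and 217. The count called higher was also 0 with median-of-ratios size factors, the expression correction, the GC correction and a 99% interval, each of which cost Mrpl50 its call. The count lower at 1.5-fold was 0 with a pseudocount of 1, the length correction and a 2-fold threshold, and 15 at 1.2-fold. Without the 32 overlapping members it was 0 again, 13 were called lower, 31 were below 0, the member, large and small subunit medians were -0.07892, -0.1499 and -0.0345, and the difference was -0.1154. Assignment by structure gave a small subunit median of -0.1153 and reversed the difference to 0.0015. The highest level was 19.31 times the lowest without division by length and 38.1 times per kilobase of principal transcript. The GC, overlap and transcript length alternatives were chosen after seeing the data. No named member called lower or higher changed sign, and 6 that were not called did (Mrpl22, Mrpl28, Mrpl40, Mrps18c, Mrps21 and Mrps23, all reported within 0.03 of 0). No paired analysis was possible because each group has 1 library. The depth leaves differences under about 0.20 (log2) undetected in a typical member.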
